A study of Tulipa gesneriana with 15 samples.

Results

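The opening of the tulip flower was followed by setting partial blooming, the second of the 5 sampled stages, against buds, the first. Each stage had 3 RNA-seq libraries made from total RNA of whole Tulipa gesneriana flowers, all labelled WT, so 6 of the 15 libraries of the series enter the comparison directly. Full blooming, early senescence and late senescence, with 3 libraries each, add to the estimate of the spread and show where the genes stood later. Each library holds the RNA of every floral organ together, and the labels give no cultivar, plant, growth condition or age. Values are FPKM, fragments scaled to the length of the feature and the size of the library. Each identifier is called a gene here, and the sources do not say whether several identifiers belong to the same gene. A gene was included when it was at 1 FPKM or more in at least 3 of the 6 bud and partial blooming libraries, which 40740 of the 76388 genes in the deposited table were. The table pairs no identifier with a gene name, a sequence or a function, so the stage labels could not be checked against marker genes, and only 4 genes are given by identifier.

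A flower opens when its petals, called tepals in tulip, enlarge and bend outward. In most species that movement comes from expansion of cells that have already stopped dividing. Expansion draws on loosening of the cell wall, on uptake of water through membrane channels and on sugars that hold the osmotic pressure up. Pigment, scent and pollen release are completed at about the same time, while the programmes that built the floral organs in the closed bud come to an end. Changes of both kinds would meet in a whole flower, together with changes in how much each organ contributes to the sample. In bulk libraries, fewer cells of a type and less RNA per cell cannot be told apart.

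Of the genes included, 30699 were at 1 FPKM or more in all 6 libraries. Another 504 passed through partial blooming alone, with no bud library at 1, and 815 passed through buds alone. Such genes had to differ in mean between the stages. They include 400 of the higher and 505 of the lower genes counted below. Just inside the limit, where the third highest of the 6 values lay within 10% above 1 FPKM, median stage means were 0.903 FPKM in partial blooming and 1.1 in buds. Just outside it, within about 10% below, they were 0.817 in partial blooming and 0.993 in buds.

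The libraries of the 2 stages formed separate groups. Across the included genes, Pearson correlations of log2(FPKM + 1) were 0.935 to 0.962 among the partial blooming libraries, 0.917 to 0.928 among the bud libraries, and 0.793 to 0.882 between the stages. These values are descriptions, since genes are not independent replicates. Partial blooming replicate 1 lay farthest from the buds, at 0.793 to 0.857, and replicate 3 lay nearest, at 0.858 to 0.882. Full blooming replicate 3, which is not part of the contrast, correlated at 0.879, 0.856 and 0.837 with bud replicates 1 to 3. With bud replicate 1 that was closer than each partial blooming library, with replicate 2 it lay between partial blooming replicates 2 and 3, and with replicate 3 it was below all of them. Genes at 1 FPKM or more numbered 36674, 38693 and 38990 in partial blooming replicates 1 to 3, against 41377, 41115 and 38364 in bud replicates 1 to 3. The sum of FPKM was 861035 to 895350 in partial blooming and 911145 to 977238 in buds, without overlap. The sequencing depth behind the values is unknown.

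As the flower opened, 3222 genes rose (7.91% of those tested) and 3861 fell (9.48%), 17.4% in all (limma on log2(FPKM + 1), adjusted p under 0.05). Rises reached further than falls. Changes of at least 3 log2 units were found for 260 higher (0.638% of those tested) and 149 lower genes (0.366%). At 5 units or more these were 43 higher (0.106%) and 10 lower genes (0.0245%). In the middle of the lists the 2 directions were close, with medians of 1.12 for rises and -1.02 for falls in log2 units. The median of all tested genes was itself -0.13. Relative to that shift the 2 medians were 1.25 and -0.89, and scaling the libraries by median ratios moved the shift to -0.02. A change under 1 log2 unit was found for 1397 of the higher and 1863 of the lower genes, on a scale that understates the change of low genes.

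**Figure D1:**
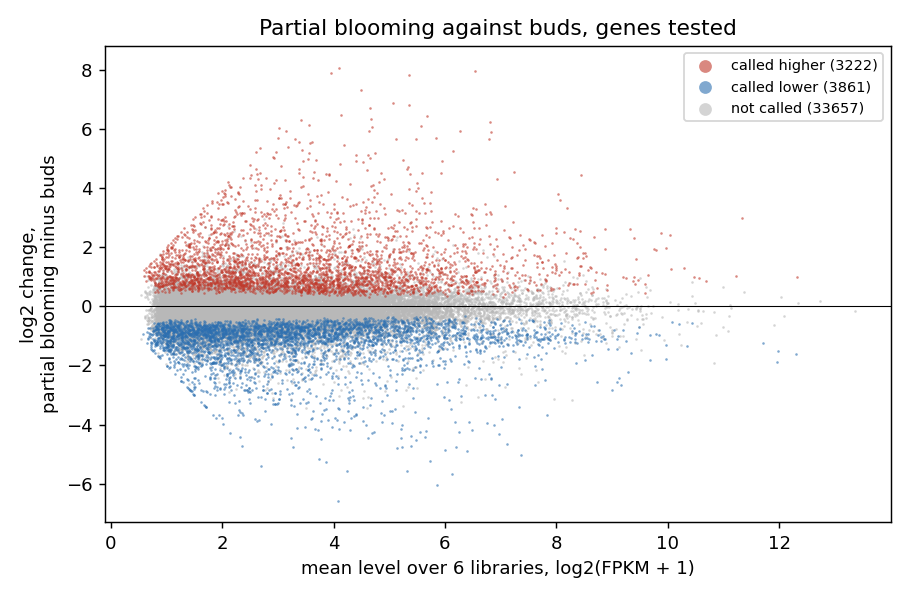
Log2 change, partial blooming minus buds (vertical axis), against the mean level over the 6 libraries in log2(FPKM + 1) (horizontal axis), 1 point per tested gene. Red points are the 3222 genes called higher in partial blooming, blue points the 3861 called lower and grey points those not called; the highest red points reach 8.07 and the lowest blue point -6.57.

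The count of genes that fell was less stable than the count of genes that rose. Without partial blooming replicate 1, which had the lowest median level of the falling genes among its stage, 1730 genes were lower and 2207 higher. With partial blooming replicate 2 left out 2384 genes were lower, and 2420 and 1850 without bud replicates 1 and 2. Without full blooming replicate 3, which enters only through the shared spread, 6385 genes were lower and 3875 higher. Leaving that library out cannot alter a log2 change, so no gene could turn direction there. Of the higher genes, 1937 (60.1%) were called in each of the 15 fits that left out 1 library, and of the lower genes 1424 (36.9%). The 6 fits that left out 1 bud or partial blooming library gave the same counts. The other fits cannot alter a log2 change. Which direction had more calls also turned. Higher genes made up 45.5% of the calls, 52.7% with median-ratio scaling and 56.1% without partial blooming replicate 1 or without bud replicate 2.

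Complete separation of the 2 stages was more frequent than a call. In 6197 genes (15.2%) every partial blooming library lay above every bud library, and in 9824 (24.1%) every one lay below. These counts used FPKM without further scaling, and its sum was lower in every partial blooming library than in every bud library. Their balance under other scalings was not computed. With so few libraries, some genes separate completely by chance. The called genes were nearly all separated in this way, 3198 of the 3222 higher genes and 3810 of the 3861 lower genes. The spread between libraries was wider in buds for the genes that rose, with a median SD of 0.156 in partial blooming and 0.239 in buds on the log2(FPKM + 1) scale. For the genes that fell it was 0.222 in partial blooming and 0.215 in buds. Over all tested genes it was 0.204 in partial blooming and 0.26 in buds.

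The largest rise belonged to F01.PB10835, which was all but unseen in the closed flower. It had 207, 323 and 328 FPKM in partial blooming replicates 1 to 3, against 0, 0.14 and 0 in bud replicates 1 to 3. All partial blooming libraries stood far above all bud libraries. The rise came to 8.07 ± 0.36 log2 units (SE; limma adjusted p 1.29e-08), and since the buds were at or near 0 its size depends on the pseudocount, reaching 11.03 with a pseudocount of 0.1. The gene passed the limit of 1 FPKM through partial blooming alone, so it had to differ in mean, and its p adds no support to that. Full blooming gave 341, 153 and 143 FPKM. The early senescence mean was 167 ± 34.6 FPKM (SD, n = 3), and late senescence, with 19.1, 27.3 and 48.0 FPKM, was lower than early senescence by a log2 change of -2.45 (limma adjusted p of 0.000497).

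F01.PB17424 was already measurable in buds and became abundant on opening. It had 1352, 1755 and 1329 FPKM in partial blooming, against 5.3, 6.43 and 3.42 in buds. The libraries within each stage lay close together compared with the gap between stages. The rise came to 7.96 ± 0.29 log2 units (SE; limma adjusted p 3.49e-09). Its level was 1852 ± 520 FPKM (SD, n = 3) in full blooming, which differed from partial blooming by 0.29 ± 0.29 log2 units (SE; limma adjusted p of 0.721), and 2119 ± 31.3 FPKM by early senescence. Late senescence, at 646 ± 224 FPKM, was lower than early senescence, with a log2 change of -1.78 (limma adjusted p of 0.000949). Full blooming was higher than buds by 8.25 log2 units, a comparison that uses the same bud libraries as opening does.

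The largest fall was that of F01.PB11148. It had 1.37, 0.44 and 0.55 FPKM in partial blooming, against 150, 73.0 and 409 in buds. The bud libraries differed widely among themselves, yet the lowest of them stood far above the highest partial blooming library. The change was -6.57 ± 0.44 log2 units (SE; limma adjusted p 5e-07). It was under 2 FPKM in every later library. Its mean was 1.08 ± 0.412 FPKM in full blooming and 0.177 ± 0.0551 in early senescence (SD, n = 3 each). Late senescence had 0.07, 0 and 0 FPKM.

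F01.PB24621 also fell, but its later course was different. It had 3.15, 6.84 and 9.82 FPKM in partial blooming, against 357, 459 and 633 in buds, a log2 change of -6.06 ± 0.79 (SE; limma adjusted p of 0.000209). Partial blooming replicate 1 was the lowest of its stage and replicate 3 the highest. In full blooming it was at 1.12 and 0.51 FPKM in replicates 1 and 2 and at 23.1 in replicate 3. That last library was above every partial blooming library. Late senescence, at 10.3 ± 4.70 FPKM, was higher than early senescence, at 0.387 ± 0.198 FPKM (SD, n = 3 each), by 2.93 ± 0.79 log2 units (SE; limma adjusted p of 0.0155). Under the 28 alternatives tried, limma adjusted p-values were at most 3.54e-05 for both rises, and at most 0.00125 and 0.00167 for F01.PB11148 and F01.PB24621. All 4 genes kept their direction, but they were chosen for the largest changes, so that tests nothing. Alternatives that alter only the filter, the spread or the libraries of other stages leave the log2 change as it was.

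**Figure D2:**
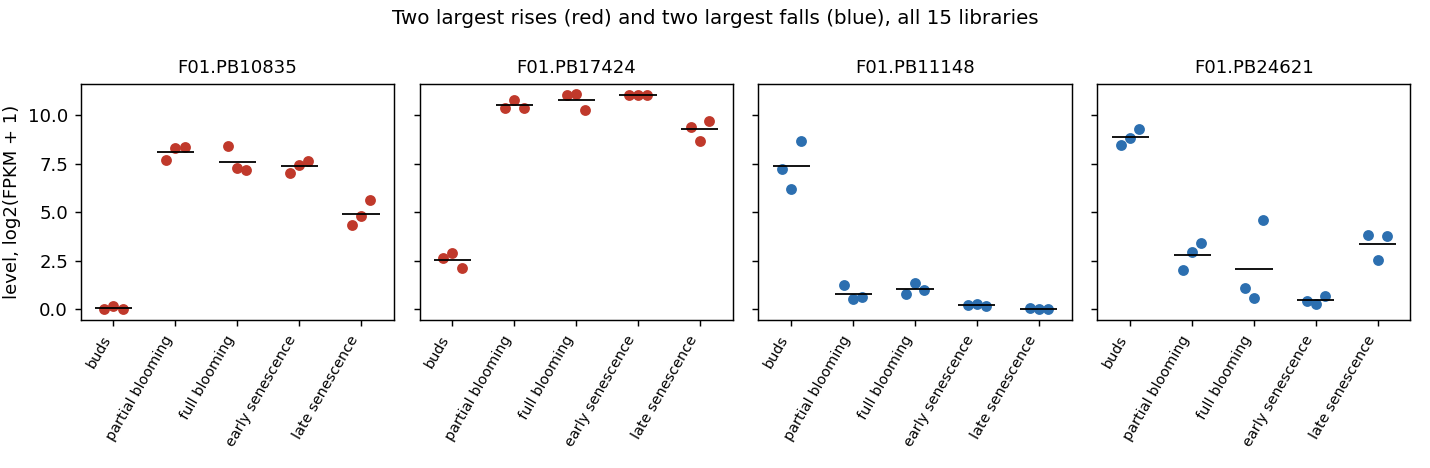
Level in log2(FPKM + 1) of the 2 genes with the largest rises (red) and the 2 with the largest falls (blue) in the 15 libraries, by stage; points are libraries in replicate order and bars are stage means. F01.PB17424 is at 1253 FPKM or more from partial blooming to early senescence, F01.PB10835 is at 19.1 to 48.0 FPKM in late senescence, F01.PB11148 is under 2 FPKM in every library after buds, and F01.PB24621 has 1 full blooming library, replicate 3, at 23.1 FPKM.

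The 100 largest rises and the 100 largest falls, taken among called genes whose libraries did not overlap and whose higher stage averaged at least 10 FPKM, were followed through all stages. The rises spanned log2 changes of 8.07 to 4.02. Their median level was 87.6 FPKM in partial blooming, against 1.92 in buds. In full blooming their median was 142 FPKM, and 76 of the 100 genes were above their partial blooming mean. Early senescence had a median of 94.3 FPKM. Late senescence had 55.7, and there 93 of the 100 genes were still above their bud mean. The 3 partial blooming libraries lay close together, with medians of 88.1, 97.0 and 86.2 FPKM.

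The 100 largest falls spanned log2 changes of -6.57 to -3.40 and had a median of 5.34 FPKM in partial blooming, against 81.7 in buds. Here the libraries within a stage disagreed. The medians were 1.03, 4.28 and 8.24 FPKM in partial blooming replicates 1 to 3, against 69.8, 73.1 and 102 in bud replicates 1 to 3. In full blooming they were 1.31, 0.385 and 19.7 FPKM, with replicate 3 above every partial blooming library. In early senescence the median was 0.308 FPKM, and 99 of the 100 genes were below their bud mean. In late senescence it was 12.2 FPKM, above the partial blooming mean in 81 genes and below the bud mean in 93. These genes were chosen for their size of change, so the levels in the 2 stages of opening describe them and test nothing.

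The genes that rose and those that fell exchanged shares of all expression. Those that rose held 25.3%, 24.4% and 22.7% of the summed FPKM in partial blooming replicates 1 to 3, against 7.24%, 7.60% and 8.75% in bud replicates 1 to 3. Those that fell held 8.52%, 10.01% and 11.02% in partial blooming, against 22.1%, 23.5% and 23.5% in buds. The lists were chosen on these libraries, so the shares show size only. No single gene made up most of the gain or of the loss. Of the summed difference among the 3222 higher genes, 50% came from 111 genes and 90% from 1036. Among the 3861 lower genes, 50% came from 117 and 90% from 1198. The gene with the largest gain made up 4.53% of the summed gain and the one with the largest loss 4.6% of the summed loss. Genes not called held 65.1% ± 0.397 (SD, n = 3) in partial blooming and 67.8% ± 1.38 in buds.

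**Figure D3:**
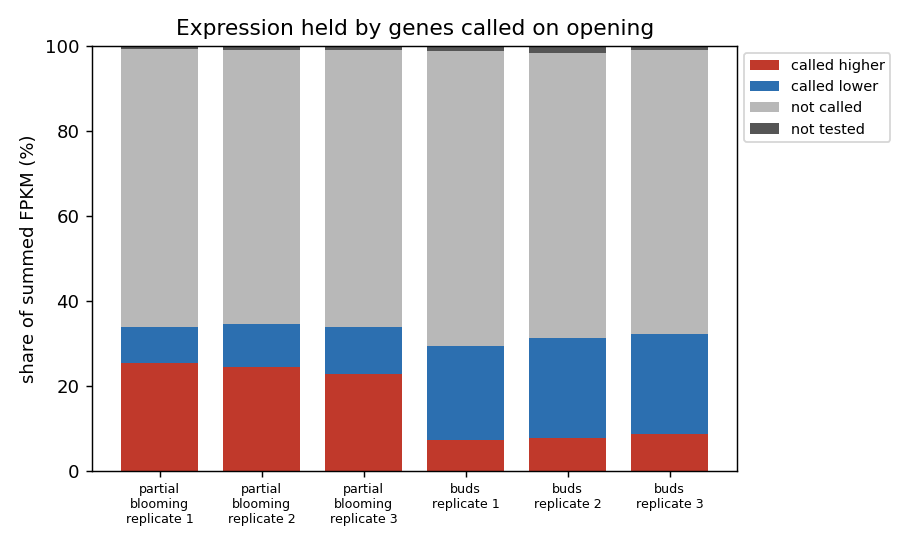
Share of the summed FPKM of each library, in percent, held by genes called higher in partial blooming (red), called lower (blue), not called (light grey) and not tested (dark grey), with the 3 partial blooming libraries left and the 3 bud libraries right. The red share is 22.7% to 25.3% in partial blooming and 7.24% to 8.75% in buds.

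The ranking of the most abundant transcripts was partly replaced. Of the 100 genes with the highest mean FPKM in partial blooming and the 100 highest in buds, 56 were on both lists. Of the 44 that were on the partial blooming list alone, 36 were called higher, and of the 44 on the bud list alone, 24 were called lower. Among all genes averaging 100 FPKM or more, 18.4% were called higher and 21.8% lower. Being on 1 list alone selects for that direction, so these counts are descriptions. One of the 100 most abundant genes of partial blooming ranked 21247 among all genes in buds. The lowest rank in partial blooming of a bud gene was 4358. The concentration of expression itself was alike. The 100 most abundant genes of each library held 18.9% to 20.1% of its FPKM in partial blooming and 19.5% to 20.8% in buds.

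Calls were more frequent among genes of higher level. With genes split by their mean over the 6 libraries, 12.3% were called under 5 FPKM, 17.6% from 5 to 20, 28.0% from 20 to 100 and 40.2% at 100 or more. The spread between libraries was narrower at higher levels, with a median SD on the log2(FPKM + 1) scale of 0.233 in partial blooming and 0.281 in buds under 5 FPKM, and 0.163 in partial blooming and 0.222 in buds at 100 or more. The median size of a called change was 1.01 log2 units under 5 FPKM and 1.20 at 100 or more. Higher genes made up 40.3% of the calls under 5 FPKM, 46.6% from 5 to 20, 51.2% from 20 to 100 and 45.7% at 100 or more. The part of the spread in the frequency of calls was not tested.

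**Figure D4:**
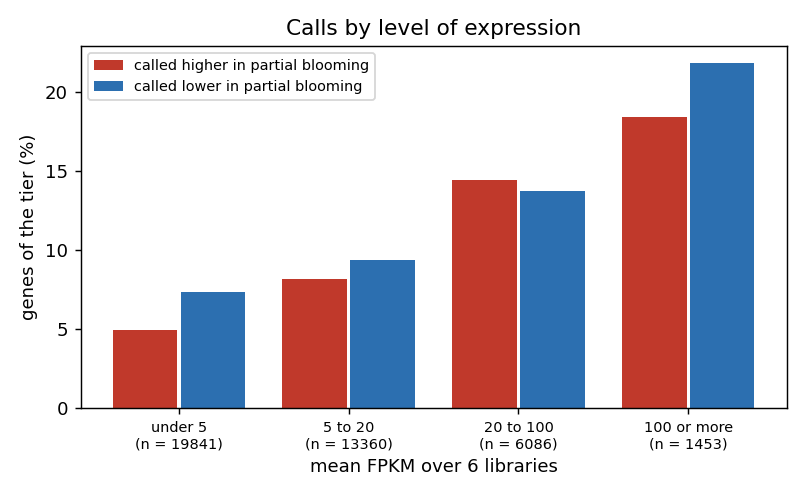
Percent of tested genes called higher (red) and lower (blue) in partial blooming than in buds, by mean FPKM over the 6 libraries. Both percentages are smallest under 5 FPKM, at 4.96% and 7.35%, and reach 18.4% and 21.8% at 100 FPKM or more.

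A small number of genes were seen in the libraries of only 1 of the 2 stages. At 1 FPKM or more in all 3 partial blooming libraries and under 0.1 in all 3 of buds were 42 genes, with a median stage mean of 4.15 FPKM and a highest of 243. The reverse was found for 44 genes, with a median of 5.68 FPKM in buds and a highest of 41.5. With the lower limit set to a listed value of 0, the first count was 23, and with the upper limit set to 5 FPKM the counts were 14 and 7. Both counts grow when a library is left out, since a rule on fewer libraries is easier to meet. Genes seen in partial blooming alone numbered 82, 72 and 92 with bud replicates 1 to 3 left out in turn, and 67 with partial blooming replicate 2 left out. Those seen in buds alone numbered 111 and 112 with bud replicates 1 and 3 left out, and 71, 102 and 106 with partial blooming replicates 1 to 3 left out.

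The later libraries played no part in choosing these genes, and the sets differed there. Of the 42 genes seen in partial blooming, 32 were at 1 FPKM or more in all 3 full blooming libraries, 31 in all 3 of early senescence and 22 in all 3 of late senescence. Of the 44 seen in buds, 5 reached it in all 3 full blooming libraries, 6 in all 3 of early senescence and 23 in all 3 of late senescence. Their median stage mean was 0.733 FPKM in full blooming, then 0.345 at early senescence, then 3.53 at late senescence. Few had vanished altogether, since 12 of the 44 were under 0.1 FPKM in all 3 full blooming libraries and 6 in all 3 of late senescence. Among single full blooming libraries, 11, 15 and 16 of the 44 were at 1 or more, and no one library held them all.

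The whole lists were followed in the same way. For each called gene the bud mean on the log2 scale was set to 0 and the partial blooming mean to 1, and the position of every later stage was read on that scale. The genes were chosen on these 2 means and on a spread estimated over all 15 libraries, so positions are descriptions without a test. The later libraries thus also shaped the lists, and leaving out full blooming replicate 3 alone gave 6385 lower genes. Genes that rose had a median position of 1.03 in full blooming, the same 1.03 at early senescence and 0.72 at late senescence. Around the equal medians the genes spread out, with quartiles of 0.698 and 1.296 in full blooming and 0.47 and 1.59 at early senescence. Genes that fell had medians of 1.03, then 1.27 and then 0.80 at these stages. Their quartiles were 0.785 and 1.241 in full blooming and 0.839 and 1.685 at early senescence. In full blooming 2773 of the 3222 higher genes (86.1%) and 3504 of the 3861 lower genes (90.8%) were nearer to their partial blooming level than to their bud level, or beyond it. In early senescence these were 73.7% and 86.1%, and in late senescence 59.4% and 67.5%. By then 745 of the higher genes were below their bud mean and 569 of the lower genes above theirs.

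Full blooming replicate 3 stood apart in this measure as well. Its median position was 0.82 for the genes that rose and 0.59 for those that fell, against 1.15 and 1.12 for the rising genes in full blooming replicates 1 and 2, and 1.24 and 1.21 for the falling genes. For the falling genes it was nearer to the buds than each partial blooming library was. Without it the median position in full blooming was 1.14 for the higher and 1.23 for the lower genes, and 61.3% and 70.5% were at or past their partial blooming level, against 53.0% and 53.3% with it. The partial blooming libraries differed more in the falling genes, with median positions of 1.15, 0.99 and 0.87 in replicates 1 to 3, than in the rising genes, with 1.02, 1.02 and 0.96. Partial blooming replicate 1 was the lowest of its stage in 2450 of the 3861 lower genes (63.5%), and replicate 3 was the highest in 2210 (57.2%). The labels give no measure of how far each flower had opened.

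**Figure D5:**
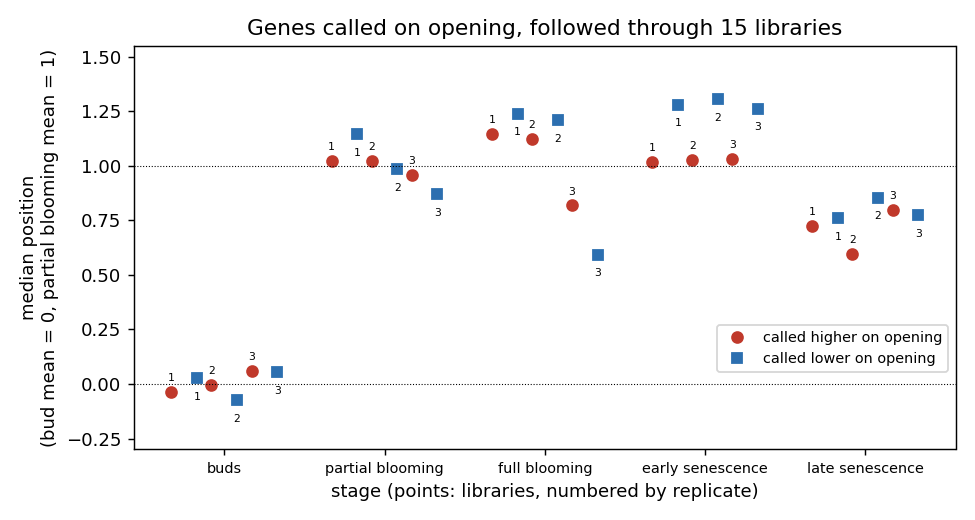
Median position of the genes called higher (red circles) and lower (blue squares) on opening in each of the 15 libraries, by stage, with the bud mean at 0 and the partial blooming mean at 1; numbers are replicates. Full blooming replicate 3 lies at 0.82 and 0.59, under the other libraries of its stage, and the late senescence libraries lie between 0.60 and 0.85.

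Genes called on opening were then looked up at the onset of senescence, early senescence against full blooming. The 2 comparisons contrast different libraries, but both use the spread of each gene estimated over all 15, so a gene of low spread is more easily called in both. Among the same 40740 genes, 2983 rose at onset (7.32%) and 3163 fell (7.76%; limma, adjusted p under 0.05). Of the genes that had risen on opening, 622 rose again, which is 19.3% of that list and 20.9% of the onset list, and 565 fell, which is 17.5% and 17.9%. Of the genes that had fallen on opening, 567 fell again, 14.7% of that list and 17.9% of the onset list, while 229 rose, 5.93% and 7.68%. Of the genes not called on opening, 6.33% rose and 6.03% fell at onset. In this fit the share of falling genes that rose at onset was close to these background shares, and the other 3 were above them. Beside the shares of the onset lists, 7.91% of all tested genes rose and 9.48% fell on opening. Fitted on its own 6 libraries each, so that no spread was shared, opening and onset had 422 genes rising at both (14.3% of those that rose on opening), 403 rising and then falling (13.6%), 139 falling and then rising (3.38%) and 316 falling at both (7.69%). In those fits, 4.95% of the genes not called on opening rose at onset and 3.7% fell. There the share of falling genes that rose at onset was below background, and the other 3 were above it. Calls on opening were more frequent at high levels, and the part of level in these overlaps was not tested.

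The 4 overlaps held different parts of the expression. The 622 genes that rose at both steps made up 1.43% ± 0.0166 of all FPKM in buds and 3.53% ± 0.0771 in partial blooming (SD, n = 3 each). By full blooming they made up 4.95% ± 0.673, and by early senescence 11.9% ± 0.948. The 565 that rose and then fell made up 2.07% ± 0.236 in buds and 6.57% ± 0.488 in partial blooming. By full blooming they made up 5.97% ± 1.53, and by early senescence 2.22% ± 0.243. The 567 that fell at both steps made up 9.01% ± 0.609 in buds, 1.00% ± 0.177 by early senescence and 2.16% ± 0.428 by late senescence. The 229 that fell and then rose made up 0.519% ± 0.0725 in buds and 0.217% ± 0.0199 in partial blooming. By early senescence they made up 0.935% ± 0.178, and by late senescence 1.5% ± 0.195. These shares describe sets chosen on the same libraries. The counts of falling genes in these overlaps moved with single libraries, and so did the list of genes that fell on opening. Leaving out bud replicate 2 left 284 genes falling at both steps, of 1850 that fell on opening. Leaving out partial blooming replicates 1 and 2 in turn left 259 of 1730 and 314 of 2384. Leaving out early senescence replicates 1 and 2 in turn left 290 of 3314 and 295 of 3366. The main fit had 567 of 3861. Genes falling and then rising came to 150 of the 1850 with bud replicate 2 left out. They came to 121 of 1730 and 135 of 2384 with partial blooming replicate 1 or 2 left out. With full blooming replicate 3 left out they came to 428 of 6385, against 229 of 3861 in the main fit. Genes rising at both steps numbered 409 of 2910 without early senescence replicate 1, against 622 of 3222.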

How the data were processed

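The authors deposited 1 table of FPKM values to 2 decimals, 1 column per library. The unit is read from the table's name and values. Per the submitters' processing notes, which name tools without role or order, DESeq 1.18.0 and HTSeq 0.6.1 were used, with Bowtie2 2.2.3 and TopHat2 2.0.12. The sources used here do not give the reference, its annotation or the filters applied. Columns were matched to libraries by the code in the labels. No 2 libraries held identical values. Depth is unknown, so no counting interval is given.

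Stage means of log2(FPKM + 1) were compared by limma (version 3.58.1, R 4.3.3), two-sided. All 15 libraries entered and the prior variance followed the mean level, with Benjamini-Hochberg adjustment over the 40740 genes and calls at an adjusted p under 0.05. No label ties a library to a plant. A p-value therefore reflects the spread among the libraries alone, and that spread may be technical. Genes named are the 2 largest rises and 2 largest falls among called genes with no overlap between stages and a mean of at least 10 FPKM in the higher stage. The genes included, the rules and the alternatives were chosen with earlier results of these data known. Gene lists by name could not be applied, since the files pair no identifier with a name.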

Additional observations from a re-analysis of the deposited data

How the results depend on the processing

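Of 326 values recomputed under alternatives, 286 were taken as unchanged. For a count this meant a move of no more than 1.5 times. For the split of calls it meant no more than 10 percentage points, without passing 50%. For a named gene it meant the same direction and a limma adjusted p under 0.05, whatever the size of the change. Each named gene gave 28 of these values and kept its call in all 28. Named genes were chosen for the largest changes, so their part in the count shows little about stability. Except as said here and above, causes of shifts were not tested. Leaving out 2 libraries together was added last, chosen after seeing the data, and moved no value beyond these limits. The count of higher genes stayed within the limit of 1.5 times under all 28 alternatives, from 2207 to 4375. Leaving out 1 library gave 1730 to 6385 lower genes, and 37.8% to 56.1% of called genes higher. It gave 409 to 708 genes rising at both opening and onset, 391 to 789 rising and then falling, 121 to 428 falling and then rising, and 259 to 654 falling at both. Genes seen in one stage numbered 53 to 92 for partial blooming and 61 to 112 for buds. The share of called genes that were higher passed 50% with a pseudocount of 0.1 (51.3%), median-ratio scaling (52.7%) and quantile normalization (52.1%). With library quality weights, 6656 genes were lower; 1011 rose at both steps, 1258 rose and then fell, 705 fell and then rose, and 1060 fell at both. Fits on 2 groups only gave 139 genes that fell and then rose and 316 that fell at both. With stricter or other limits, 23 genes (listed at 0 in buds) and 14 (at 5 FPKM) were seen in partial blooming alone, and 7 (at 5 FPKM) in buds alone.

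Libraries with the same replicate number showed no common direction of deviation from their stage means. Deviations from a mean of 3 libraries balance within a stage, so their correlations cannot exclude a shared plant, day or batch. The deviations of same-numbered partial blooming and bud libraries correlated at -0.18, 0.18 and -0.26, and partial blooming replicate 1 correlated best with bud replicate 3 (0.36). A replicate block gave 2922 higher and 3539 lower genes. Depth is unknown, and values near 0 limit the fold changes.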
